A study of Mus musculus with 6 samples.

Results

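*Snd1* and 9 other mouse genes of the Tudor domain group (*Tdrd1*, *Tdrd3*, *Tdrd5*, *Tdrd6*, *Tdrd7*, *Tdrd9*, *Tdrkh*, *Stk31* and *Akap1*) were followed in MIN6 β cells. The 10 genes were taken from a list by name and matched by Ensembl identifier, and all 10 were among the 53808 genes measured. The question was whether a relative of *Snd1* was higher where *Snd1* was lower, and whether it followed the *Snd1* level that remained in each clone. MIN6 is a mouse insulinoma line that makes insulin. All 6 clones came from MIN6 cells expressing Cas9 that were infected with a lentivirus carrying a *Snd1* guide RNA, selected with puromycin and grown from single cells. In the 3 control clones the guide was directed to intron 2 of *Snd1*, and in the 3 *Snd1* KO clones to exon 2, and 1 library of messenger RNA was sequenced per clone. Each clone is 1 line, so differences between clones enter every comparison.

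The Tudor domain is a small fold that recognises methylated arginine or lysine on other proteins. SND1 joins a Tudor domain to staphylococcal nuclease folds and acts as a transcriptional coactivator and as a regulator of RNA. Most genes named *Tdrd* work in the germ line, where their proteins gather PIWI proteins, which carry methylated arginines, into the granules that make piRNAs, the small RNAs that silence transposons. *Tdrd3*, *Tdrd7*, *Tdrkh* and *Akap1* are also transcribed outside the germ line.

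The edited stretch of *Snd1* is shown because the 3 KO clones carried different changes there. In GRCm38, *Snd1* (ENSMUSG00000001424) occupies chromosome 6 between 28475139 and 28935162, plus strand. The 60 bases shown of exon 2 lie at chr6:28512835-28512894, in an exon of 150 bases, and were found in 4 of the 12 annotated *Snd1* transcripts. In the lines for the guide RNA targets, capitals mark the 20 bases matched by each guide. Both targets are followed by the PAM GGG, and the expected Cas9 cuts come after base 27 (gRNA1) and base 37 (gRNA2) of the stretch. In the lines for the KO clones, as read by the authors by Sanger sequencing, capitals run from the first base that is unlike the wild type, at base 19 in KO1 and base 36 in KO3. For KO2 the authors drew a major deletion followed by 15 bases, which were found in 0 of the 12 transcripts. KO1 and KO2 were listed under gRNA1 and KO3 under gRNA2.
WT exon 2: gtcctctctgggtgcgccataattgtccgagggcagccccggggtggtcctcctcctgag
gRNA1 target: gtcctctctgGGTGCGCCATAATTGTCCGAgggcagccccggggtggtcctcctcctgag
gRNA2 target: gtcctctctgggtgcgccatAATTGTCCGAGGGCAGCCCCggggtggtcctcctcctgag
Snd1 KO1: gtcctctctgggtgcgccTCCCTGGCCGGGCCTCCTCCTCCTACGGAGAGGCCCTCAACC
Snd1 KO2: GGGGAGATCTCTCTG
Snd1 KO3: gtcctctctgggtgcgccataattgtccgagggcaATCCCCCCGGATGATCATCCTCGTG

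RNA levels are given as deposited, in TPM, a unit of reads per gene length scaled to the same total in every library. The libraries held between 23700598 and 30454304 reads on genes, as recovered from the TPM values. The 10 β cell markers examined summed to between 54530 and 87668 TPM in control clones and between 62449 and 92640 TPM in *Snd1* KO clones. None of the 10 was called, against 0.00561% of all genes tested. *Neurod1* was higher in every KO clone (log2 fold change 0.78), as were 9.69% of all genes tested. *Slc2a2* had a log2 fold change of −1.28 with overlapping groups. The 6 acinar and ductal markers reached at most 0.136 TPM in all. The 7 markers of other islet cells summed to between 174 and 314 TPM in control clones and between 55.9 and 1103 TPM in *Snd1* KO clones, nearly all of it *Gcg*, while *Hhex* was at 0. The 7 fibroblast, endothelial and immune markers summed to between 2.00 and 5.36 TPM in control clones and between 2.65 and 3.27 TPM in *Snd1* KO clones. In the whole transcriptome Control 3 lay apart from the other control clones. It correlated more closely with *Snd1* KO3 (Pearson's r = 0.955 across genes) than with Control 1 (r = 0.943). Control 1 and Control 2 gave r = 0.980, and *Snd1* KO2 and KO3 gave r = 0.974. *Snd1* KO1 reached at most r = 0.938 with any other clone. Genes are not independent replicates, so these r values only describe the clones, and the part of this split in the results that follow was not tested.

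*Snd1* RNA was lower in every KO clone than in every control clone but remained in all 3. Control 1, 2 and 3 stood at 113, 119 and 112 TPM, and KO1, KO2 and KO3 at 14.7, 57.1 and 19.9 TPM. The groups did not overlap, and *Snd1* KO2 was the highest of the KO clones. Relative to the control mean of 114.7 ± 3.57 TPM (SD, n = 3), the KO clones kept 12.9% (KO1), 49.8% (KO2) and 17.3% (KO3). The library with most *Snd1* RNA bears the name of the clone drawn with the major deletion, and libraries and sequenced clones were matched by these names alone. These values rested on 1247, 4650 and 1735 reads, so counting error was small beside the difference between clones.

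The log2 fold change of *Snd1* between KO and control was −2.11 (standard error 0.45, 95% interval −3.19 to −1.03, n = 3 per group). It did not pass the threshold across all genes (adjusted p = 0.511, limma with Benjamini-Hochberg adjustment), and the exact two-sided permutation test gave p = 0.1, the smallest that 3 against 3 allows. The adjusted p was 0.0402 without *Snd1* KO2 and 0.0195 when clones were weighted by their spread, and it ranged from 0.0195 to 0.986 over all alternatives. The weights were 0.279 for Control 3, 0.286 for *Snd1* KO1 and 3.91 for *Snd1* KO3. Control 3 and KO1 thus counted for little in every weighted fit. The TPM values do not separate the edited alleles, and in bulk RNA a loss in a share of the cells and less RNA per cell cannot be told apart. The values say nothing of SND1 protein. The authors screened clones by western blot and chose the KO clones as deficient in SND1, so remaining *Snd1* RNA is not read here as remaining protein.

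None of the 4 relatives with enough RNA to test was called in either direction. A call needed an adjusted p under 0.05 and at least a 2-fold difference, which 0.00561% of the 17823 genes tested met. At an unadjusted p under 0.05 the count was 0 of 4 as well, against 7.96% of all genes tested. With clones weighted by their spread it was again 0 of 4, where 2.95% of all genes were called higher and 2.08% lower. The upper limits of the 95% intervals were 1.25-fold for *Tdrd3*, 1.31-fold for *Tdrd7*, 1.15-fold for *Tdrkh* and 1.52-fold for *Akap1* on the log2(TPM + 1) scale, so a 2-fold rise lay outside each of them.

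To compare levels between genes, TPM was recomputed from the recovered reads with each exonic base counted once (merged-exon TPM), since the deposited lengths add up all transcripts of a gene. On that scale the order in each of the 3 control clones was *Snd1*, *Tdrkh*, *Tdrd7*, *Akap1* and *Tdrd3*. The control means were 129 ± 3.90 for *Snd1*, 47.9 ± 10.7 for *Tdrkh*, 28.4 ± 0.963 for *Tdrd7*, 20.3 ± 2.98 for *Akap1* and 15.996 ± 1.95 merged-exon TPM for *Tdrd3* (SD, n = 3). *Akap1* and *Tdrd3* overlapped between control clones, with a lowest *Akap1* level of 17.57 and a highest *Tdrd3* level of 17.60 merged-exon TPM, while other neighbours in the order did not.

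**Figure D1:**
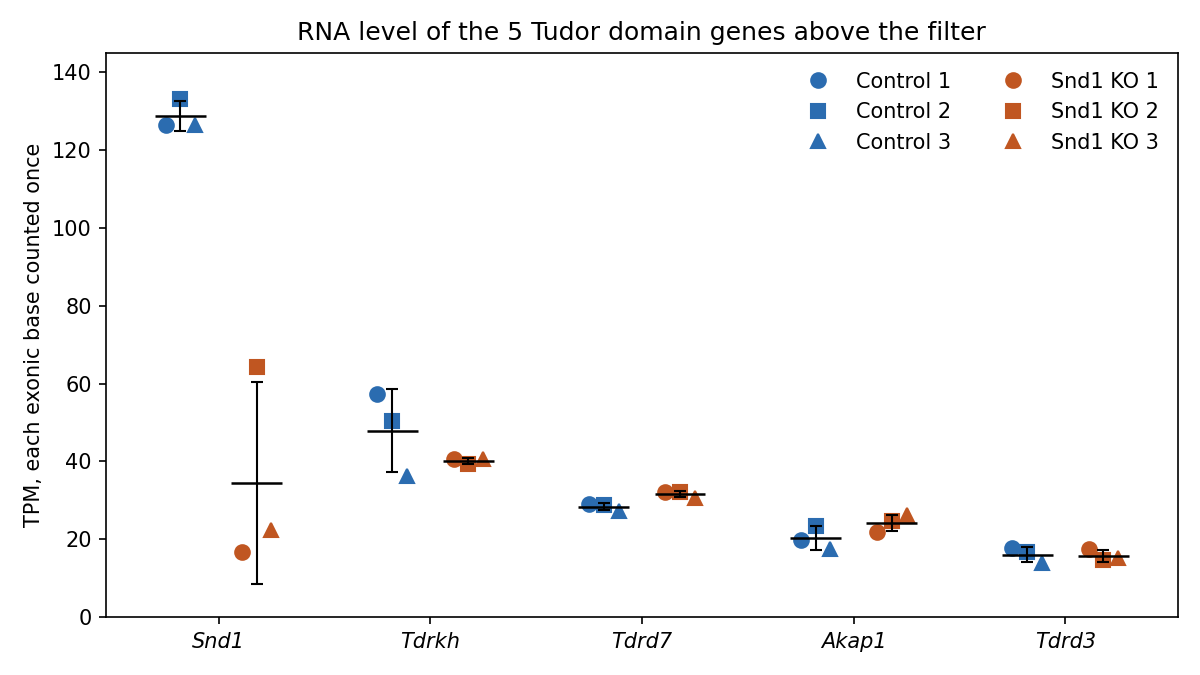
RNA level (merged-exon TPM, linear axis) of the 5 Tudor domain genes above the filter in each control clone (blue) and Snd1 KO clone (orange), with the mean (line) and SD (bar) of 3 clones. Snd1 ranked above the other 4 in every control clone, and in the KO clones it lay at 16.7, 64.2 and 22.5 while the other 4 kept their order in every clone.

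In the *Snd1* KO clones the order of the 4 relatives was the same, and only the place of *Snd1* moved. It ranked last of the 5 in KO1 at 16.7, first in KO2 at 64.2 and next to last in KO3 at 22.5 merged-exon TPM. In KO1 it lay just under *Tdrd3*, which had 17.4 merged-exon TPM there.

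*Tdrd3* encodes a reader of methylated arginine that binds histones and works with topoisomerase on RNA and DNA. It lies on chromosome 14 from 87416639 to 87545504, plus strand. Control 1, 2 and 3 had 12.7, 11.9 and 9.89 TPM, and KO1, KO2 and KO3 had 12.4, 10.5 and 10.7 TPM. The groups overlapped throughout, with Control 1 highest and Control 3 lowest of the 6. On the log2 scale the difference was −0.03 (standard error 0.15, 95% interval −0.39 to 0.33, adjusted p = 0.969, limma), and the exact permutation test gave p = 0.9. The sign of this small difference turned under 3 alternatives, with values between −0.15 and 0.04 over all of them.

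*Tdrd7* encodes a protein of RNA granules needed in the lens and in developing sperm. It lies on chromosome 4 from 45965334 to 46034761, plus strand. The control clones held 19.7, 19.5 and 18.3 TPM and the KO clones 21.5, 21.6 and 20.5 TPM, each in the order of their numbers. All KO clones lay above all control clones, by a narrow margin. The log2 fold change was 0.14 (standard error 0.11, 95% interval −0.11 to 0.39, adjusted p = 0.748, limma), and the exact permutation test gave p = 0.1, the smallest possible. With clones weighted by their spread the value was 0.09.

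*Tdrd7* was the one relative of 4 tested that was higher in every KO clone than in every control clone, against 9.69% of all genes tested. With quantile normalization its groups overlapped, and then 6.64% of all genes were higher and 7.55% lower in every KO clone. None of the 4 was lower in every KO clone, against 4.03% of all genes. Of all genes whose groups did not overlap, 70.6% were higher in the KO clones, and this share was 46.8% with quantile normalization, 59.0% with median ratio scaling and 83.9% when insulin and mitochondrial genes were taken out before scaling. Without Control 3 it was 49.1%. The median log2 fold change over all genes was 0.04 and lay between −0.01 and 0.09 under these scalings.

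*Tdrkh* encodes a mitochondrial protein with KH and Tudor domains that holds PIWI proteins during piRNA trimming. It lies on chromosome 3 from 94413273 to 94434668, plus strand. Levels of 28.1 (Control 1), 24.6 (Control 2) and 17.6 TPM (Control 3) stood beside 19.6 (KO1), 19.1 (KO2) and 19.7 TPM (KO3). Control 1 and Control 2 lay above all KO clones and Control 3 below them. Its log2 fold change of −0.23 did not pass the threshold (standard error 0.18, 95% interval −0.66 to 0.20, adjusted p = 0.758, limma), with p = 0.4 in the exact permutation test. Without Control 3 all KO clones lay below the control clones and the log2 fold change was −0.41, while without Control 1 it was −0.09, the ends of the range over the alternatives.

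The KO clones differed less in *Tdrkh* than the control clones did. The coefficient of variation was 22.8% in control clones and 1.47% in KO clones, where counting alone gives 2.47% at the fewest reads of any clone. Without Control 3 the coefficient in control clones was 9.47%. Of the exonic bases of *Tdrkh*, 36.7% are shared with *Oaz3* on the opposite strand. *Oaz3* had a mean of 0.0652 TPM, and whether reads in the shared stretch were counted for either gene was not given in the sources used here.

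*Akap1* encodes an anchor that places protein kinase A and RNA at the mitochondrial surface, and carries KH and Tudor domains. It lies on chromosome 11 from 88830792 to 88864586, minus strand. Levels were 8.40, 9.92 and 7.38 TPM in the control clones, in order, and 9.16, 10.4 and 10.9 TPM in KO1, KO2 and KO3. *Snd1* KO1 lay between the control clones, and KO2 and KO3 lay above all of them. *Akap1* gave a log2 fold change of 0.23 (standard error 0.16, 95% interval −0.15 to 0.61, adjusted p = 0.724, limma), and the exact permutation test gave p = 0.2. It was the largest positive value of the 4 relatives and lay between 0.14 (without Control 3) and 0.33 (without Control 2) over the alternatives. Without Control 2 or without *Snd1* KO1 the groups of *Akap1* did not overlap.

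Clone by clone, none of the 4 relatives was above all controls in every KO clone and nearest to them in KO2, where most *Snd1* remained. Within the KO clones alone, *Tdrd3* ran in the inverse order of *Snd1*. It stood at 108% of the control mean in KO1, 93.3% in KO3 and 91.2% in KO2. Between the KO clones with least and most *Snd1*, the *Snd1* level differed 3.87-fold. The highest KO clone exceeded the lowest 1.18-fold for *Tdrd3*, 1.05-fold for *Tdrd7*, 1.03-fold for *Tdrkh* and 1.19-fold for *Akap1*. Between the 3 control clones the same genes spanned 1.29-fold, 1.08-fold, 1.60-fold and 1.34-fold. Without Control 3 these spans were 1.07-fold, 1.01-fold, 1.14-fold and 1.18-fold, narrower than in the KO clones for all but *Tdrkh*. Leaving out a clone can only narrow a span, so spans of 2 control clones and of 3 KO clones are not on equal terms.

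**Figure D2:**
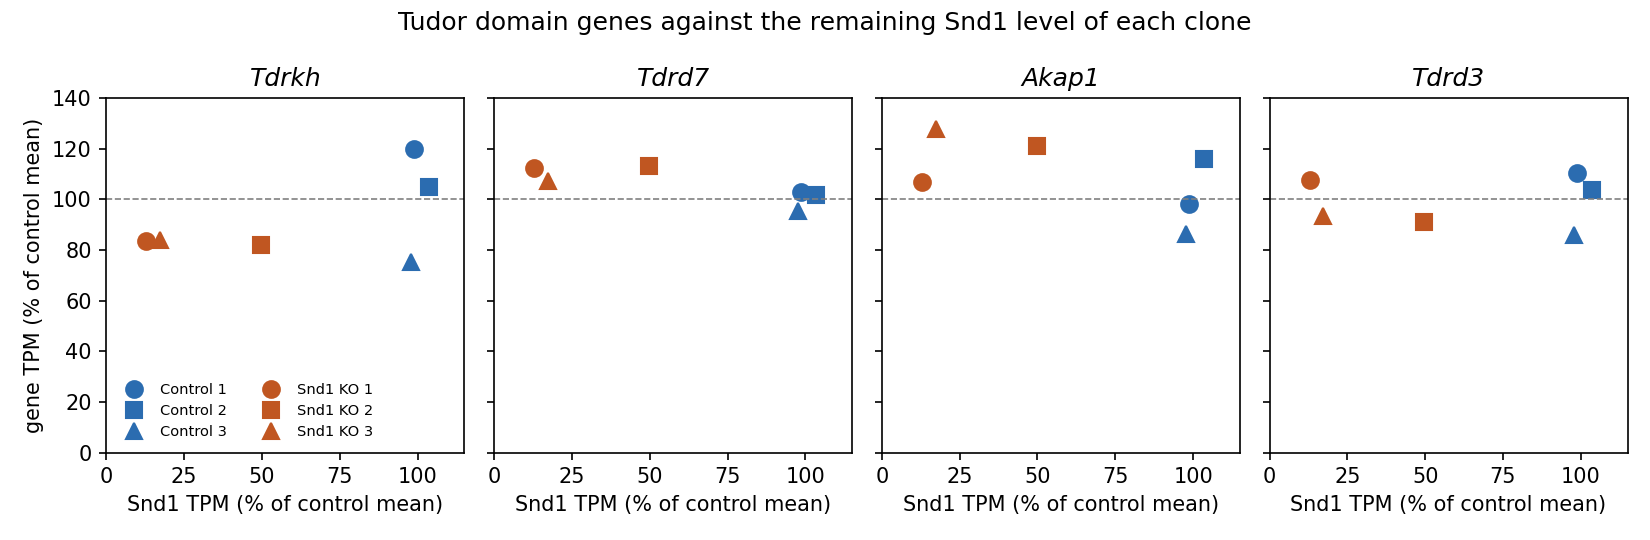
TPM of 4 Tudor domain genes in each clone (vertical axis, percent of the mean of the 3 control clones) against Snd1 TPM in the same clone (horizontal axis, percent of its control mean), with control clones in blue, Snd1 KO clones in orange and the dashed line at the control mean. In the 3 KO clones Snd1 stood between 12.9% (KO1) and 49.8% (KO2) of control. There Tdrd7 lay between 107% and 113%, Tdrkh between 81.8% and 84.1%, Tdrd3 between 91.2% and 108%, and Akap1 between 107% and 128%.

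In *Snd1* KO1, the clone with least *Snd1*, the levels relative to the control mean were 108% for *Tdrd3*, 112% for *Tdrd7*, 83.6% for *Tdrkh* and 107% for *Akap1*. In *Snd1* KO3, next in *Snd1* level, they were 93.3%, 107%, 84.1% and 128% in the same order. In *Snd1* KO2, with most *Snd1* of the 3, they were 91.2%, 113%, 81.8% and 121%. A relative that followed *Snd1* RNA inversely would have been above the controls in all KO clones and nearest to them in KO2. This held for 0 of the 4 genes, against 2.02% of all genes tested. *Tdrd7* was above the controls in all 3 but nearest to them in KO3, and *Akap1* was lowest in KO1. The coefficient of variation of *Tdrd7* in KO clones was 2.85%. Counting alone gives 3.55% at its fewest reads, so the order of the KO clones is not resolved for *Tdrd7*. *Tdrd3* ran in the inverse order of *Snd1* over the KO clones, all of them within the range of the control clones. A relative below the controls in all KO clones and nearest to them in KO2 was likewise found in 0 of 4, against 1.11% of all genes tested. With 4 genes, counts of 0 are not far from these background shares. The clones fall into 2 separate ranges of *Snd1*, so no correlation was computed.

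The level summed over the 9 relatives was compared too. Control 1, 2 and 3 reached 124, 119 and 95.05 merged-exon TPM, and KO1, KO2 and KO3 reached 112, 111 and 113. The group means were 113 ± 15.4 and 112 ± 0.961 merged-exon TPM (SD, n = 3 each), while *Snd1* went from 129 ± 3.90 to 34.5 ± 25.9 merged-exon TPM. The comparison turned on Control 3, the lowest clone. Without it the control mean was 121 ± 3.30 merged-exon TPM (SD, n = 2), and all 3 KO clones lay below both control clones. In neither case was the mean sum higher in the KO clones.

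The germ line members of the group were at or near 0 in all 6 clones. *Tdrd1*, *Tdrd5*, *Tdrd6* and *Tdrd9* encode components of germ granules, TDRD9 being an RNA helicase, and *Stk31* encodes a protein with a Tudor domain and a kinase-like domain found in the testis. These 5 genes held between 0 and 7 reads per library and were below the minimum of a mean of 0.5 TPM, so they were not tested. A count of 0 allows up to 3 reads, which is 0.0583 TPM in the shallowest library for *Stk31*, 0.0526 TPM for *Tdrd5*, 0.0446 TPM for *Tdrd9*, 0.0416 TPM for *Tdrd6* and 0.0303 TPM for *Tdrd1*. These limits cover counting error only, and they would be higher if the mates of a pair were counted as separate reads, which the values do not settle.

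**Figure D3:**
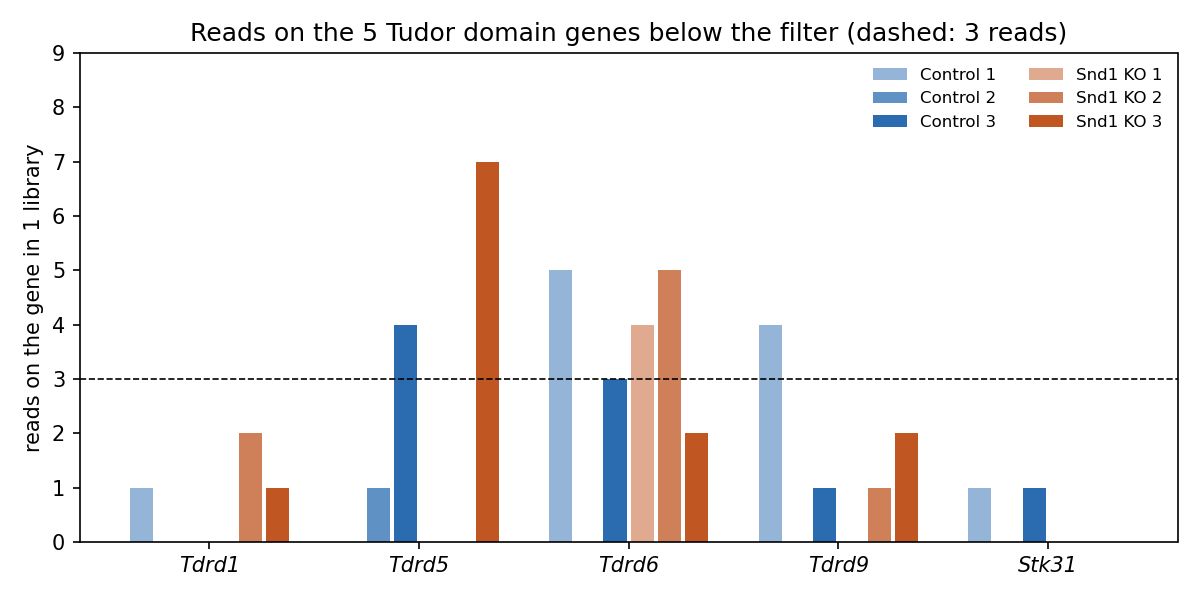
Reads on each of the 5 Tudor domain genes below the filter, 1 bar per library (blue, control clones 1 to 3 from pale to dark, and orange, Snd1 KO clones 1 to 3 from pale to dark), with the dashed line at 3 reads. No gene exceeded 7 reads in any clone, and libraries at 0 show no bar.

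*Tdrd1* (chromosome 19, 56826209 to 56870012, plus strand) was read in Control 1, with 1 read, and in KO2 and KO3 with 2 and 1 reads. *Tdrd5* (chromosome 1, 156255296 to 156303664, minus strand) was read in Control 2 and Control 3, with 1 and 4 reads, and among the KO clones in KO3 alone, with 7 reads. Those 7 reads amounted to 0.114 TPM, the highest level of any of the 5 genes. *Tdrd6* (chromosome 17, 43615335 to 43630299, minus strand) was seen in all clones but Control 2, with 5 reads in Control 1, 3 in Control 3, and 4, 5 and 2 in KO1, KO2 and KO3, these being the fewest whole reads its TPM values allow. *Tdrd9* (chromosome 12, 111971559 to 112068854, plus strand) had 4 reads in Control 1, 1 in Control 3, 1 in KO2 and 2 in KO3. *Stk31* (chromosome 6, 49395604 to 49469501, plus strand) had 1 read in each of Control 1 and Control 3 and none in any KO clone. Every one of the 5 genes thus had at least 1 library at 0, and where reads were present they came in clones of both groups except for *Stk31*. No fold change is given for them, since most values were at or under 3 reads, and a difference was not detectable at this depth.

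**Figure D4:**
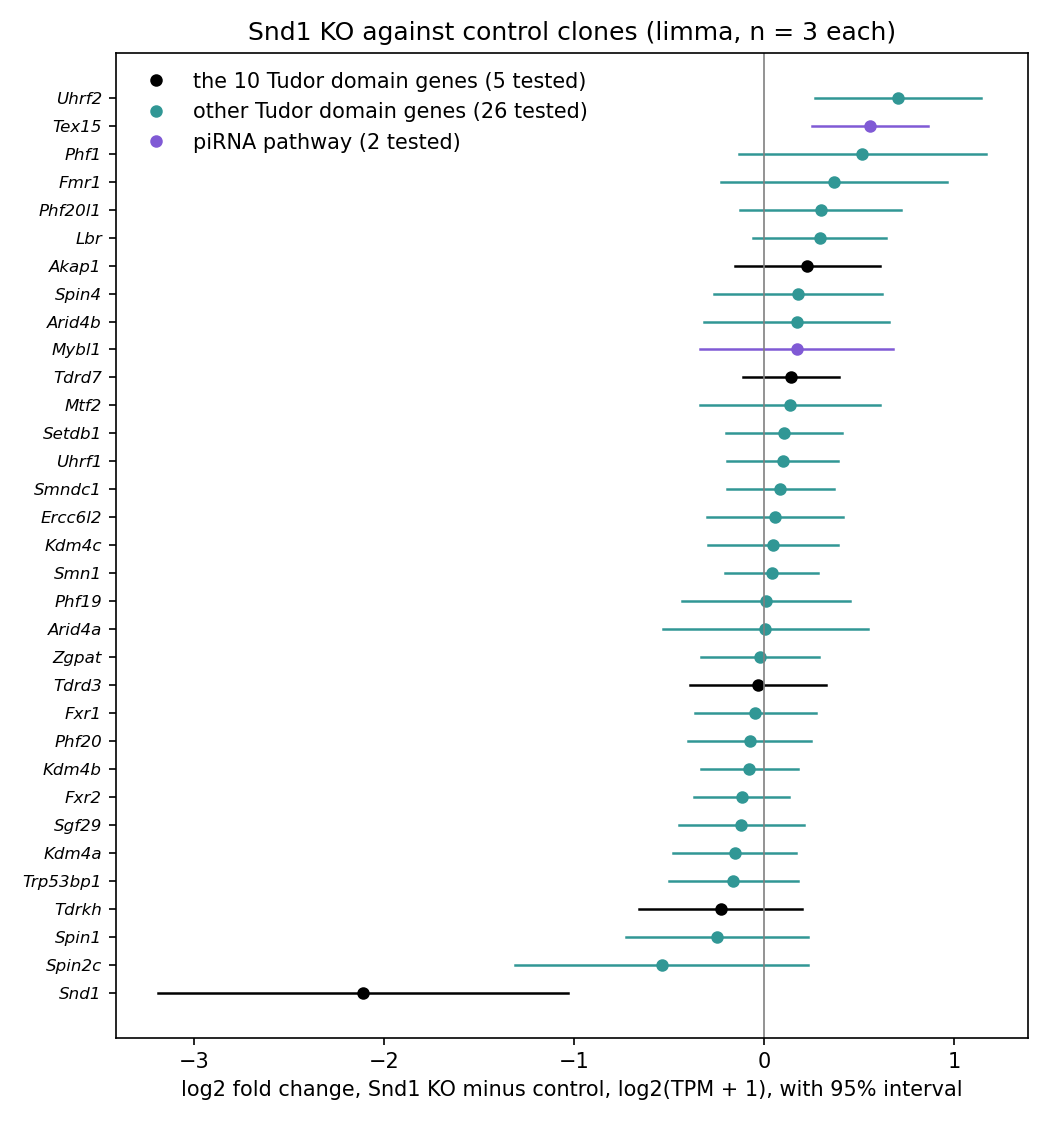
Log2 fold change (Snd1 KO minus control, on log2(TPM + 1), limma, 3 clones per group) with its 95% interval for the 5 tested members of the group (black), 26 further genes with a Tudor or Tudor-like domain (teal) and 2 tested genes of the piRNA pathway (purple). Snd1 at −2.11 lies apart from the others, which range from −0.54 to 0.70.

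Of 29 further genes with a Tudor or Tudor-like domain, among them readers of histone methylation such as *Phf1* and *Trp53bp1* and RNA-binding proteins such as *Smn1* and *Fmr1*, 28 were measured and 26 passed the filter. None of the 26 was called in either direction, against 0.00561% of all genes tested. Of the 26, 16 had a positive and 10 a negative log2 fold change. Their median was 0.04 with a range from −0.54 to 0.70. The median over all 17823 genes tested was also 0.04, with 10208 positive and 7615 negative values. Without Control 3 the median of the 26 was −0.06, beside 0.0044 over all genes. *Tdrd12* and *Rnf17*, germ line genes both, were the measured genes below the filter, with 5 to 14 and 0 to 2 reads per clone. Among the 26 tested, 2 were higher and 1 was lower in every KO clone than in every control clone, against 9.69% and 4.03% of all genes tested.

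*Uhrf2*, which encodes a ubiquitin ligase that reads modified cytosine and methylated histone, had the largest log2 fold change among the 3 of these genes whose groups did not overlap. Controls held 13.3, 13.2 and 19.3 TPM, in order, and KO1, KO2 and KO3 held 22.0, 27.7 and 25.95 TPM. The groups did not overlap, and Control 3 lay nearest to the KO clones. Its log2 fold change was 0.70 (standard error 0.18, 95% interval 0.27 to 1.14), which did not pass the threshold (adjusted p = 0.568, limma). The adjusted p was 0.0179 when clones were weighted by their spread, where 12.1% of all genes had an adjusted p under 0.05, and it ranged from 0.0179 to 0.986 over the alternatives. *Phf20l1*, a reader of methylated lysine, had a log2 fold change of 0.30 (95% interval −0.13 to 0.72), which was 0.12 without Control 3 and 0.18 with clones weighted by their spread. *Kdm4b*, a histone demethylase, had −0.08 (95% interval −0.34 to 0.17), and between −0.12 and −0.03 over the alternatives. For these 2 genes the groups did not overlap, yet the intervals included 0.

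Most genes of the piRNA pathway were at or near 0 reads in all clones. Of 17 genes listed, 10 had at most 3 reads in every clone, among them *Piwil1* and *Piwil4*, which encode PIWI proteins, and *Mael*. The same was true of 32457 of all 53808 genes, so this count is not particular to the list. *Exd1*, which encodes a partner of TDRD12, had 15, 3 and 4 reads in Control 1, 2 and 3 and 44, 3 and 16 reads in KO1, KO2 and KO3, so that KO2 was no higher than Control 2. Only *Tex15* and *Mybl1* passed the filter. The 8 germ cell markers examined summed to between 1.07 and 10.6 TPM in control clones and between 1.23 and 5.85 TPM in KO clones.

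*Tex15*, needed for silencing of transposons and for meiosis in the male germ line, had 8.20, 8.43 and 7.67 TPM in Control 1, 2 and 3 and 13.1, 12.1 and 11.9 TPM in KO1, KO2 and KO3. The groups did not overlap, and the spread within each group was small. The log2 fold change was 0.56 (standard error 0.13, 95% interval 0.25 to 0.86, adjusted p = 0.537, limma). The adjusted p was 0.0235 with clones weighted by their spread and ranged from 0.0235 to 0.986 over the alternatives. *Tex15* was not nearest to the controls in *Snd1* KO2, the clone with most *Snd1*. *Mybl1*, which encodes the transcription factor that drives piRNA precursors in spermatocytes, had a log2 fold change of 0.17 (95% interval −0.34 to 0.68), which turned to −0.05 without Control 3 and was 0.37 without Control 1.

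The genes around the edited locus were examined because all KO clones were cut in exon 2. Of 35 annotated genes within 500 kb of *Snd1*, 14 were tested and none was called in either direction, against 0.00561% of all genes tested. Of the 14, 2 (*Ccdc136* and *Gm44354*) were higher and 0 were lower in every KO clone, against 9.69% and 4.03% of all genes tested. *Ccdc136* (chromosome 6, 29396309 to 29426994) stood at 5.72, 6.12 and 5.77 TPM in Control 1, 2 and 3 and at 7.97, 7.30 and 8.40 TPM in KO1, KO2 and KO3. Its groups did not overlap, and the log2 fold change was 0.37 (95% interval 0.03 to 0.71, adjusted p = 0.607, limma), with an adjusted p of 0.0431 to 0.986 over the alternatives. *Gm44354*, a microRNA gene inside it on the opposite strand, had 1 read in Control 2, none in the other two controls and 2 reads in each KO clone, all under the floor of 3 reads. It passed the filter only through the KO clones and is given by its reads alone. *Lrrc4*, *Gm37321*, *Gm37978* and *Gm37940* lie within *Snd1* and share 0 exonic bases with it.

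Among the 11367 genes that averaged 5 TPM or more, the patterns most like that of *Snd1* over the 6 clones were those of *Rbp4*, *Src*, *Tmie*, *Sp8* and *Tff3*. Likeness was the root mean square difference of log2(TPM + 1), centred on the control mean, which was 0.61 for *Rbp4*, the retinol carrier, and 0.72 for *Tff3*. *Rbp4* went from 40.0, 32.7 and 23.9 TPM in Control 1, 2 and 3 to 1.07, 10.1 and 8.29 TPM in KO1, KO2 and KO3, with KO2 highest of the KO clones as for *Snd1*. The patterns nearest to the mirror image of *Snd1* were those of *Cldn23* (0.62), *Rnu5g*, *Zfp185*, *Hs3st3b1* and *Snora2b* (0.72). *Cldn23*, a tight junction gene, lay between 0 and 1.17 TPM in the controls and at 17.1, 4.25 and 12.1 TPM in KO1, KO2 and KO3. In the same KO clones *Hs3st3b1* had 11.3, 11.5 and 6.46 TPM, highest in KO2. *Sp8* was nearly level there, at 19.4, 20.3 and 20.7 TPM. The measure also takes in the difference between groups, so a listed gene need not follow *Snd1* within the KO clones. The minimum applies to the mean over all 6 clones. *Src* passed it only through the control clones, and *Cldn23*, *Rnu5g*, *Hs3st3b1* and *Snora2b* only through the KO clones, so the minimum itself bears on which genes are listed. None of these 10 genes carries a Tudor domain. The nearest relative by this measure was *Tdrkh* at rank 1361 of the genes like *Snd1*, and *Akap1* at rank 2018 of those like its mirror image.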

How the data were processed

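Messenger RNA of 6 clonal MIN6 lines, 3 control and 3 *Snd1* KO, was analysed with 1 library per clone, grouped by the genotype label. The authors prepared the libraries from 100 ng of RNA, sequenced paired ends, and deposited TPM per gene. Their processing notes name FastQC, Trimmomatic, HISAT2, HTSeq and mm10, among others. ERCC spike-ins (92 entries, at most 1.02 TPM per clone) were left out. Of 53808 genes, 53706 matched GENCODE M21 (GRCm38). Reads were recovered from the deposited TPM and the summed exon length of all transcripts. With this length 93.5% of values above 0 were whole (within 0.01), and for 1580 genes the smallest length giving whole reads was used, so their reads are the fewest possible. The reads of 199 genes, which summed to at most 14.1 TPM per clone, were not recovered. A recovered read may be 1 mate of a pair.

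The 17823 genes averaging 0.5 TPM or more were compared on log2(TPM + 1) with limma 3.58.1 (trended eBayes, R 4.3.3) and Benjamini-Hochberg adjustment, tested on simulated data. A fold change on this scale understates that of low genes. Calls required an adjusted p-value under 0.05 and at least 2-fold. Single genes were also compared by two-sided exact permutation tests. The labels do not say whether the libraries were prepared separately, so p-values measure the spread between these clones. Alternatives covered pseudocount, filter, normalization, length, trend, clone weights, replicate block, voom on recovered reads and leaving out each clone. Sums, spans and the coefficient of variation without Control 3 were added after seeing the data. All members were named, and of each list those called and up to 4 with the largest differences among tested genes whose groups did not overlap. *Exd1*, *Mybl1*, *Tdrd12*, *Rnf17*, *Piwil1*, *Piwil4* and *Mael* were named after their values were seen. The members and lists were chosen with earlier results of these data known. Sequences of the guides and clones came from the study's supplement. Python 3.11.15, numpy 2.4.6, pandas 2.3.3, scipy 1.17.1 and matplotlib 3.10.9 were used.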

Additional observations from a re-analysis of the deposited data

How the results depend on the processing

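Over all genes 1 was called. The count was 0 without the filter (1803 genes at an unadjusted p under 0.05), 0 without the trend (1410), 0 with voom on recovered reads (1552), 3 with each exonic base counted once and 895 with clone weights, and between 0 and 2 when 1 clone was left out (766 to 2552 at an unadjusted p under 0.05). The *Snd1* difference was −2.31 with clone weights (adjusted p = 0.0195) and between −2.67 (without *Snd1* KO2, adjusted p = 0.0402) and −1.73 when 1 clone was left out, all by limma. The count of relatives higher in every KO clone was 0 with quantile normalization and between 1 and 2 when 1 clone was left out, where *Akap1* joined *Tdrd7* without Control 2 or *Snd1* KO1. The count of lower relatives was between 0 and 1, with *Tdrkh* without Control 3. The count that was higher and ordered with the remaining *Snd1* was between 0 and 1, with *Akap1* without *Snd1* KO1 and *Tdrd7* without *Snd1* KO2. *Tdrd3* turned sign after rescaling (0.016) and when 1 clone was left out (between −0.13 and 0.038, 0.038 without Control 1 and 0.0099 without *Snd1* KO2). Without the filter the piRNA list had a median of 0.013 over 13 genes, most at few reads. The cause of the other changes was not tested.

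The labels number the clones 1 to 3 in both groups. Deviations of clones with the same number correlated at 0.115, −0.199 and −0.108, so the numbers do not pair the clones, and the fit with the replicate block called 0 genes (1195 at an unadjusted p under 0.05).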

Other observations

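The lengths behind the TPM values differed by chromosome. Of genes above 0 in every clone, TPM multiplied by the summed exon length of GENCODE M21 gave whole reads in all clones for 14560 of 14716 genes on chromosomes 1 to 15 (98.9%) and for 1048 of 2241 genes on chromosomes 16 to 19 (46.8%). On chromosome X the share was 99.0% of 586 genes. Of the 10 Tudor domain genes, *Tdrd6* on chromosome 17 was the one affected, and *Tdrd1* on chromosome 19 was not.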
